A study of Saccharomyces cerevisiae with 76 samples.

Results

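The 31 genes that encode the subunits of the nuclear RNA polymerases of Saccharomyces cerevisiae were examined for binding of Abf1. They were taken by name from the annotation, out of 6002 nuclear protein-coding genes. A gene was counted as carrying an Abf1 peak when a peak summit lay inside its ORF (from start to stop codon) or at most 1000 bp upstream of its start codon. Abf1 was tagged with FRB, yEGFP and 3 V5 epitopes at its own locus in a MATalpha BY4742 strain. This strain also carries tor1-1, a deletion of FPR1 and RPL13A-FKBP12-NAT, the anchor that rapamycin couples to FRB to pull Abf1 out of the nucleus. The peaks described here are those before depletion (0 min), from cells given DMSO without rapamycin for 90 min. The authors called them on 3 anti-V5 immunoprecipitations together against 3 inputs, so each peak has a single pooled value. Independent colonies gave the replicates, but their spread is not in the list, and no comparison below was tested. The other time points and the untagged strain were not analysed here.

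RNA polymerase I makes the large ribosomal RNA precursor, polymerase II makes messenger RNAs and polymerase III makes tRNAs and other short RNAs. The enzymes are built on one plan. A pair of large subunits forms the catalytic cleft, a heterodimer nucleates assembly, a stalk binds emerging RNA, and a set of small subunits is common to all 3 enzymes. Polymerases I and III carry built-in counterparts of the polymerase II factors TFIIF, TFIIE (a trimer in polymerase III) and TFIIS. Abf1 is a general regulatory factor, a sequence-specific protein that helps to keep promoters free of nucleosomes.

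In all, 16 of the 31 subunit genes (51.6%) had an Abf1 peak, against a background of 19.4% of all protein-coding genes (1167 of 6002) under the same rule. The 16 genes drew on 16 summits of the 948 in the list, because RPA43 and RPA190 share a summit and RPA34 has 2. At a fold enrichment of 4 or more, 7 subunit genes (22.6%) had a peak, with a background of 9.88%. At 10 or more there were 3 (9.68%, background 5.51%), namely RPB8, RPC19 and RPC25. The median of the highest fold enrichment per gene was 3.43 for the 16 subunit genes and 4.15 for the 1167 genes with a peak. Over summits rather than genes, 7 of the 16 at subunit genes and 421 of all 948 were at 4 or more, and the median of all summits was 3.52.

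The Abf1 motif sequences under the summits are shown first, because they carry the pattern described below. Of the 16 summits, 11 had a match to the Abf1 motif within 100 bp (68.8%), compared with 66.5% of all 948 summits. All 11 best matches fit the Abf1 consensus without a mismatch. Each is printed from −10 to +10 bp around the motif midpoint, 5′ to 3′ on the strand that reads as the consensus. Capitals mark the 13 consensus positions, and the third letter is the base at −8 bp. The sequence is from sacCer3, with motif midpoints 0 to 26 bp from the summits whose positions are given below. It reads on the plus strand at RPB8, RPB10, RPB7, RPA12, RPC40 and RPC82 and on the minus strand at the others. The order is by fold enrichment.
RPB8: acctATCACGTCTGACGaaca
RPC19: ttctATCACTTGTTACGttta
RPC25: ttcaGTCGCGTTATACGgatt
RET1: ccagATCACGTCGGACGaaat
RPO31: tatcATCACTATATACGtgaa
RPB10: aaagATCACGTTGAACGaaaa
RPB7: gaagATCACTTAATACGtaat
RPO26: aaatATCATACTATACGaata
RPA12: atatATCGTTACGAACGaaag
RPC40: ccaaGTCACTATAAACGgaat
RPC82: tctgATCATTCCCAACGaacc

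The strongest 3 sites have a C at −8 bp and the other 8 an A or T. The C sites had fold enrichments of 21.5, 29.9 and 30.98, whereas the A or T sites lay between 3.03 and 5.32, so that the ranges did not overlap. This base lies outside the consensus and the score matrix. It is known to affect how efficiently Abf1 is cross-linked, and the study left out sites with A or T there because their signal did not decline on depletion and could come from Abf1 that rebinds during the procedure. The fold enrichments at the 8 A or T sites can therefore not be read as occupancy in the cell, nor set against the C sites as such. Whether this applies at each of these genes was not tested. Across all 630 summits with a motif, the median was 12.9 with G or C (266 summits, quartiles 5.00 and 25.4) and 4.06 with A or T (364 summits, quartiles 2.74 and 8.26). There the ranges overlap almost fully, since A or T summits reached 61.8. Motif scores did not follow the same order: the best match at RPC25 scored 0.919 of the range of the matrix, and that at RPO31, with a peak of 5.26, scored 0.968.

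**Figure D1:**
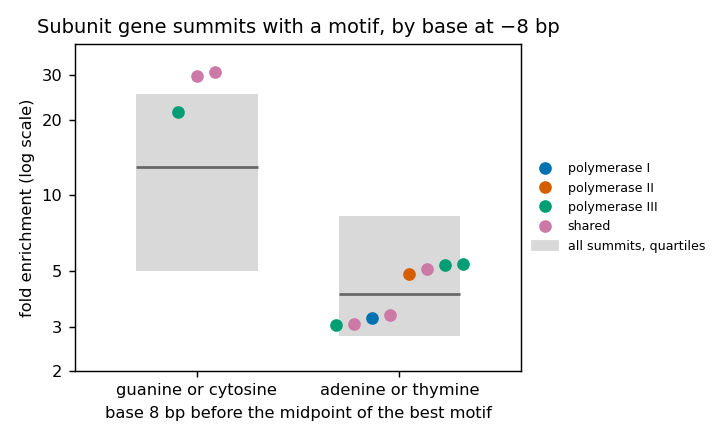
Fold enrichment (log axis) of the 11 subunit gene summits with an Abf1 motif, as points coloured by polymerase, split by the base 8 bp before the motif midpoint. Grey boxes span the quartiles of all summits with a motif and lines mark their medians; the 3 points on the left lie at 21.5 or more and the 8 on the right at 5.32 or less.

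By polymerase, peaks were found at 5 of the 7 genes for subunits found only in polymerase I, 1 of 7 for polymerase II, 5 of 10 for polymerase III and 5 of 7 for the shared subunits. The shared ones comprise 5 subunits of all 3 enzymes, of which 3 had a peak, and the RPC40 and RPC19 subunits of polymerases I and III, which both had one. Of all protein-coding genes, 19.4% had a peak, and the share of polymerase II genes (14.3%) is near that background. These counts are of listed peaks. The Abf1 consensus upstream of the genes, described below, did not order polymerases I and II in the same way. Counted together, 15 of the 24 genes for subunits of polymerase I, III or both had a peak (62.5%). These 24 include the 5 common subunits, which are also part of polymerase II and of which 3 had a peak. The 1 of 7 for polymerase II leaves the common subunits out, so the shares are not like for like. Among peaks of fold enrichment 4 or more, the numbers were 0 of 7 for polymerase I, 1 of 7 for polymerase II, 3 of 10 for polymerase III and 3 of 7 for the shared subunits. The background at this threshold was 9.88%. The peaks of polymerase I genes lay between 2.47 and 3.25, under the median of all summits. With an upstream limit of 500 bp, 13 subunit genes had a peak (41.9%, background 14.8%) and the polymerase I count was 2 of 7, because the summits at RPA190, RPA34 and RPA135 lie farther out.

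**Figure D2:**
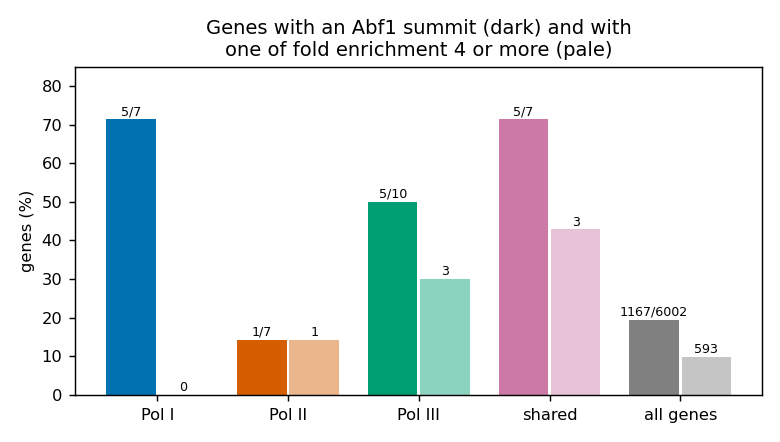
Percentage of genes with an Abf1 summit (dark bars) and with a summit of fold enrichment 4 or more (pale bars) among subunit genes of each polymerase, shared subunit genes and all 6002 protein-coding genes, with gene counts above the bars. Polymerase I has 5 of 7 genes with a peak but 0 at 4 or more, and polymerase II has 1 of 7 in both.

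Among the 6 genes for the large core subunits, 4 had a peak (background 19.4%), those of polymerases I and III. With that background, the lack of a peak at RPO21 and RPB2 alone says little about polymerase II. RPO31 (YOR116C, largest subunit of polymerase III) had a fold enrichment of 5.26, with a 95% Poisson interval of 4.87 to 5.66 from 696 fragments at the summit. These intervals cover counting error only. Its summit lies at 544514 on chromosome XV (sacCer3), 369 bp before the start codon and 515 bp from the divergent RPT5, a proteasome gene. The second motif there, gaatATCGTGTTTCACGaaat, has its midpoint 18 bp from the first and an A at −8 bp. RET1 (YOR207C), the second-largest subunit of polymerase III, had nearly the same value, 5.32 (4.93 to 5.72; 701 fragments), with overlapping intervals. Its motif midpoint coincides with the summit at 733608 on chromosome XV, 151 bp before the start codon. RPA190 (YOR341W, largest subunit of polymerase I) reached 2.47 at a summit 642 bp upstream, and RPA135 (YPR010C, second-largest) reached 2.75 at 899 bp. Neither of these had a motif within 100 bp. The RPA135 summit, at 582095 on chromosome XVI, falls inside a lysine tRNA gene (582062 to 582134), and it lies nearer to the start codon of MRA1. It is not upstream of MRA1, however, but 278 bp beyond the 3′ end of that ORF. Of all summits in the list, 231 (24.4%) lie inside tRNA genes, with a median fold enrichment of 2.95. Without summits inside ORFs or tRNA genes, 14 subunit genes had a peak (45.2%, background 13.2%), RPA135 and RPC17 being the ones lost. The paper kept only peaks of fold enrichment 4 or more for its off-rates. It states that this cut also removes weak apparent binding over ORFs and tRNA genes, which it calls a known ChIP artefact. The RPA135 and RPC17 summits are under that cut, as are 9 of the 16 summits at subunit genes. How far such an artefact enters these counts was not tested. RPO21 (YDL140C) and RPB2 (YOR151C), the large subunits of polymerase II, had no summit within range, the nearest lying 5528 and 6660 bp beyond the 3′ ends of their ORFs.

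Of the 4 assembly platform genes, 2 had a peak (background 19.4%), too few genes to read a division between polymerases from them. RPC19 (YNL113W) and RPC40 (YPR110C), which form the heterodimer of polymerases I and III, both had a peak, and their polymerase II counterparts RPB3 (YIL021W) and RPB11 (YOL005C) had none. RPC19 had 29.9 (29.0 to 30.9; 3940 fragments), rank 59 of 948. The summit is at 412618 on chromosome XIV, 153 bp before its start codon and 565 bp from the divergent YNL115C. RPC40 had 3.06 (2.78 to 3.36; 428 fragments), rank 584, at 746986 on chromosome XVI. Both summits lie at almost the same distance from the start codon (153 and 151 bp), although their signals differ by much more than counting error. RPC19 has a C at −8 bp and RPC40 an A, so these signals cannot be compared as occupancy in the cell.

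Of the 5 common subunits, RPB8, RPB10 and RPO26 had peaks (60.0%, background 19.4%), and RPB5 (YBR154C) and RPC10 (YHR143W-A) did not. RPB8 (YOR224C) had the highest value of the set, 30.98 (30.1 to 31.9; 4258 fragments), rank 54. Its summit at 761411 on chromosome XV is 146 bp before the start codon, in a tandem arrangement with ISU2, a scaffold gene of iron-sulphur cluster assembly. RPB10 (YOR210W) had 5.09 (4.73 to 5.46; 755 fragments) at 738146 on the same chromosome. RPO26 (YPR187W) had 3.32 (3.02 to 3.65; 444 fragments) at 911124 on chromosome XVI, 133 bp from its own start codon and 102 bp from that of PZF1. PZF1 encodes TFIIIA, a polymerase III transcription factor, so this summit lies between 2 genes of the transcription machinery.

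Of the 6 stalk genes, 4 had a peak (background 19.4%), again with 1 strong site. RPC25 (YKL144C), a polymerase III stalk subunit, had 21.5 (20.7 to 22.3; 2865 fragments), rank 113, at 176639 on chromosome XI. This summit is 158 bp from RPC25 and 142 bp from LTV1, a gene for assembly of the small ribosomal subunit. RPC17 (YJL011C), its partner in the stalk, had 3.53 (3.25 to 3.84; 561 fragments). The RPC17 summit, at 415005 on chromosome X, lies in another lysine tRNA gene (414966 to 415038) and had no motif. RPB7 (YDR404C) was the only polymerase II gene with a peak, 4.86 (4.49 to 5.24; 653 fragments) at 1277456 on chromosome IV. It is 287 bp from RPB7 and 190 bp from MRP20, a mitochondrial ribosomal protein gene, and it had a second motif, cgtaATCGCGTTATACGaatt. Its partner RPB4 (YJL140W) had no summit. RPA43 (YOR340C), of the polymerase I stalk, shares its summit with RPA190: at 960345 on chromosome XV, with 2.47 (2.21 to 2.74; 347 fragments), it sits 163 bp before RPA43 in the region from which both genes diverge. RPA14 (YDR156W), the other polymerase I stalk gene, had no summit nearer than 23151 bp.

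In the remaining roles, 1 of 4 TFIIF-like genes, 1 of 3 genes for cleavage-related subunits and 1 of 3 genes of the TFIIE-like trimer had a peak (background 19.4%), each under a fold enrichment of 4. Among the TFIIF-like subunits, RPA34 (YJL148W) had 2 summits in one interval, 2.64 and 2.62, at 805 and 596 bp, both without a motif. RPA49 (YNL248C), RPC53 (YDL150W) and RPC37 (YKR025W) had none. Of the 3 subunits related to RNA cleavage, RPA12 (YJR063W, polymerase I) had 3.25 (2.96 to 3.55; 479 fragments) at 555064 on chromosome X, 131 bp upstream. It was the only polymerase I gene with a motif at its peak. RPB9 (YGL070C) and RPC11 (YDR045C) had no summit. In the TFIIE-like trimer of polymerase III, RPC82 (YPR190C) had 3.03 (2.73 to 3.34; 394 fragments) at 919187 on chromosome XVI, 146 bp upstream and 194 bp from QCR2, a respiratory chain gene. RPC34 (YNR003C) and RPC31 (YNL151C) had none. At the 1000 bp limit, the last summit inside was that of RPA135 at 899 bp, and the first outside was one of 21.5 at 1617 bp upstream of RPC31.

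**Figure D3:**
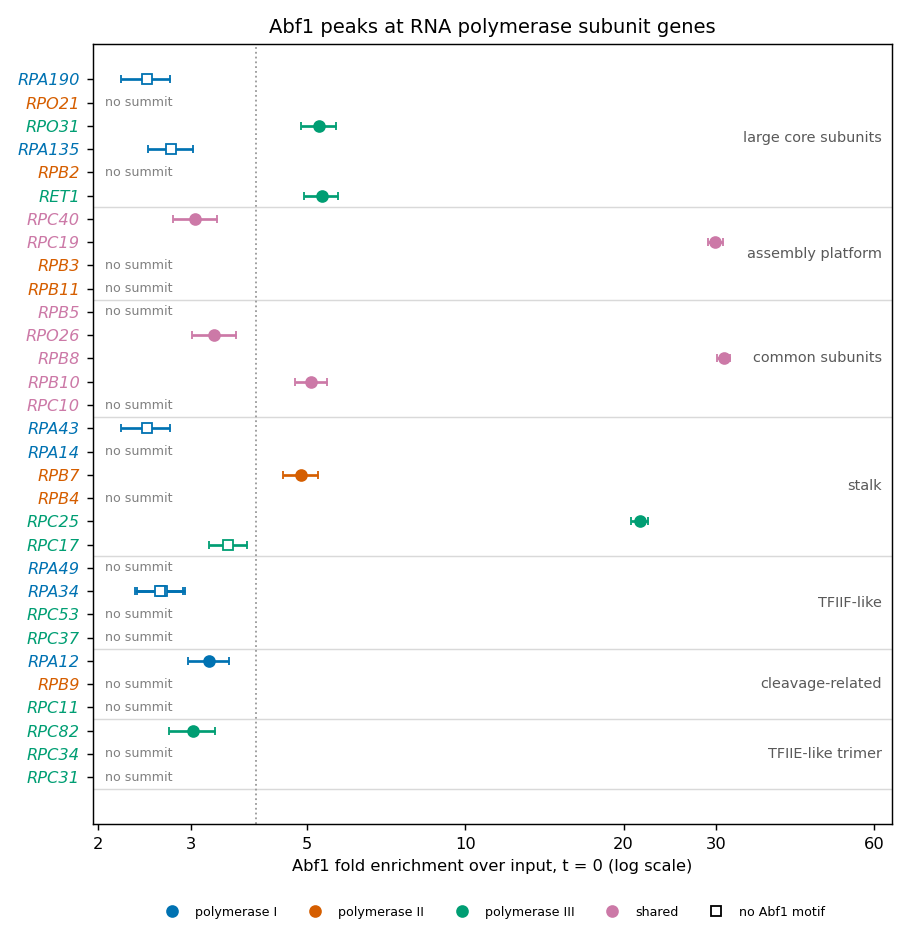
Abf1 fold enrichment before depletion (log axis) at each of the 31 subunit genes, grouped by role and coloured by polymerase, with 95% Poisson counting intervals as bars. Open squares lack a motif, and the dotted line marks 4; RPB8, RPC19 and RPC25 stand between 21.5 and 30.98 and all other points lie at 5.32 or less.

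Distance from the start codon ranged from 131 to 899 bp over the 16 genes. The highest summit lay between 131 and 174 bp before the start codon at 10 of the 16 genes: RPA12, RPO26, RPB8, RPC82, RPC40, RET1, RPC19, RPC25, RPA43 and RPB10. Of all 1167 genes with a peak, 14.7% had their highest summit in this window. The window was set from the values of the subunit genes, so the 2 shares are a description only. In a wider window of 100 to 300 bp, also chosen after the values were seen, the shares were 75.0% and 40.2%. None of the 31 ORFs, which add up to 42658 bp, held a summit, and 2.07% of all protein-coding genes did. Most of the subunit genes have a divergent neighbour (21 of 31, compared with 51.8% of all genes). Among these, 12 of 21 had a peak (57.1%, all divergent genes 22.9%), and among the rest 4 of 10 (40.0%, all such genes 15.7%). At 5 genes with a peak, RPA190, RPA135, RPO26, RPB7 and RPC25, the start codon of another gene was nearer to the summit. When each summit was counted only for the nearest start codon, 11 subunit genes were left (35.5%, background 12.8%), with 0 of 7 for polymerase II. With a limit of 250 bp upstream there were also 11 (background 9.06%), without RPA190, RPO31, RPA135, RPB7 and RPA34. When only the highest summit of each peak interval was used there were 15 (48.4%, background 18.9%), without RPB7.

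**Figure D4:**
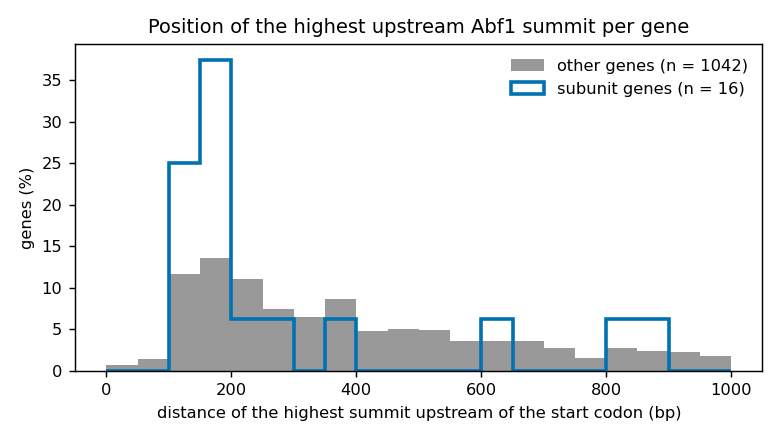
Distance from the start codon to the highest Abf1 summit, for genes where that summit lies upstream, in bins of 50 bp as a percentage of each group. The line shows the 16 subunit genes, 10 of which fall between 131 and 174 bp, and the grey area the other genes with a peak.

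The Abf1 consensus was also searched in the 500 bp before each start codon, a step added after the peaks were seen. It occurred without mismatch at 12 of the 16 subunit genes with a peak (75.0%), compared with 52.3% of all genes with a peak. Among genes without a peak, it occurred at 4 of 15 subunit genes (26.7%) and at 9.91% of all such genes. The 4 genes with a match but no peak are RPB2, RPB3, RPB4 and RPC10, and RPA135 has a match 207 bp upstream, away from its summit. Their midpoints are at 617058 on chromosome XV (RPB2, plus strand), 312710 on IX (RPB3, minus), 150754 on X (RPB4, minus), 387069 on VIII (RPC10, minus) and 581403 on XVI (RPA135, minus). These 5 sites are shown because the sequence is there without a listed summit within 100 bp.
RPB2: aaaaATCATTTTGAACGccaa
RPB3: cttgGTCATTGCGAACGagtt
RPB4: tattGTCGCGTTGCACGtaaa
RPC10: aaaaATCATATTCTACGaccg
RPA135: tataATCGCTAATGACGgaaa

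All 5 have an A or T at −8 bp. For polymerase II the consensus occurred at RPB2, RPB3, RPB4 and RPB7, of which RPB7 alone had a peak. For polymerase I it occurred at RPA12 and RPA135, and for polymerase III at RPO31, RET1, RPC25 and RPC82. Polymerase I thus had more genes with a peak than polymerase II but fewer with the consensus. Of the 18 exact matches upstream of subunit genes, the 3 with a C at −8 bp all had a summit within 100 bp, and 10 of the 15 with an A or T did. Over all genes, 78.3% of the 240 matches with G or C and 42.7% of the 700 with A or T had one. The list holds only peaks at or above a fold enrichment of 2, so the absence of a summit means a signal under the authors' thresholds, not that Abf1 is absent.

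PAC and RRPE are promoter elements known from polymerase I and III subunit genes and ribosome biogenesis genes. PAC was searched as GCGATGAG and RRPE as AAAATTTT, both strands, in the same 500 bp. PAC occurred at 7 of the 31 genes (22.6%, all genes 4.83%): RPC40, RPC19, RPC25, RPC82, RPA49, RPC37 and RPC31. By group, that was 1 of 7 for polymerase I, 0 of 7 for polymerase II, 4 of 10 for polymerase III and 2 of 7 for the shared subunits. With PAC at 4.83% of all genes, the 0 of 7 is close to the background. RRPE occurred at 16 (51.6%, all genes 12.4%), with 6 of 7 for polymerase I and 2 of 7 for polymerase II. Both elements were found at similar shares of subunit genes with and without an Abf1 peak, 4 of 16 and 3 of 15 for PAC and 9 of 16 and 7 of 15 for RRPE. The Reb1 motif TTACCCG, of another general regulatory factor, occurred at 5 genes (16.1%, all genes 10.1%). Of these, RPA190 and RPC19 had an Abf1 peak and RPB11, RPA14 and RPB9 had none. A match is a description of the sequence and was not tested for binding.

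The 4 promoters that hold PAC and an Abf1 motif within 100 bp of a summit are printed on the strand of the gene up to the base before the start codon, with both elements in capitals. They begin 10 bp before the outer element. They are RPC19 (chrXIV:412605-412770, plus strand), RPC40 (chrXVI:746836-746976, minus), RPC82 (chrXVI:919042-919203, minus) and RPC25 (chrXI:176482-176685, minus).
RPC19: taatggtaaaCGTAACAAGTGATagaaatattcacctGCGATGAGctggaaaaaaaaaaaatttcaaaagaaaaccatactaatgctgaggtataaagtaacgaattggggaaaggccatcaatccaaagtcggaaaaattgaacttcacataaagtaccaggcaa
RPC40: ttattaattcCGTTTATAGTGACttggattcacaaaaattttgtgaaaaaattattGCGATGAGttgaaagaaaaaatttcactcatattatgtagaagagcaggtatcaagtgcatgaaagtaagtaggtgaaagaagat
RPC82: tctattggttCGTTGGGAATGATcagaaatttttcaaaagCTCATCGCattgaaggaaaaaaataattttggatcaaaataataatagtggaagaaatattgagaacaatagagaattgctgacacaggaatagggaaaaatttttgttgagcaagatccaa
RPC25: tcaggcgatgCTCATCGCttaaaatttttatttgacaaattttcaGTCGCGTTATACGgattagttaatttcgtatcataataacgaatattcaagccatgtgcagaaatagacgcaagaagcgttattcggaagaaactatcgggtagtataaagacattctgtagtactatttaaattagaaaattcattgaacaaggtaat

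At RPC19, RPC40 and RPC82, PAC lies between the Abf1 motif and the start codon, with 14, 33 and 17 bp between the elements, and the motif reads on the opposite strand to the gene. At RPC25 the order is reversed, with PAC 27 bp farther out than the Abf1 motif, on the side of LTV1. Fold enrichment differed widely among these 4 promoters, from 29.9 at RPC19 and 21.5 at RPC25, which have a C at −8 bp, to 3.06 at RPC40 and 3.03 at RPC82, which have an A and a T.

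Genes for factors that work with these polymerases were counted by the same rule. Of 26 such genes, 5 had a peak (19.2%), which is close to the background of 19.4%. None of the 9 listed genes for polymerase III initiation factors and their repressor MAF1 had one. The list leaves out PZF1 (TFIIIA), which by the same rule has the summit it shares with RPO26, 3.32 at 102 bp upstream. Among 8 polymerase I initiation factor genes, RRN5 alone had a summit, inside its ORF, with a fold enrichment of 3.997 (3.67 to 4.34). Of 9 genes for assembly and nuclear import of the polymerases, 4 had peaks (44.4%, background 19.4%), namely RBA50, RBS1, GPN2 and BUD27. The BUD27 summit, 3.20 (2.91 to 3.52) at 519 bp upstream, is nearer to the start codon of EPL1. GPN2, a GTPase gene, had 11.0 (10.4 to 11.6) at 145 bp upstream. RBS1, linked to polymerase III assembly, had 10.8 (10.3 to 11.4), although the start codon of UFD2 is nearer. RBA50, linked to polymerase II assembly, had 8.74 (8.25 to 9.25) at 232 bp upstream.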

How the data were processed

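Reads were mapped by the authors with HISAT2 2.0.5 (genome sacCer3). They kept 1 fragment per combination of molecular identifiers and uniquely mapping reads only, and called peaks with MACS2 2.1.1.20160309 (q-value 0.001, fold enrichment 2, summits split). The deposited fold enrichment is the ratio of the pileup at the summit to the input background, each with 1 added. The deposited −log10 p-value is a Poisson test of the pileup, from which the number of fragments was solved; it came within 0.01 of a whole number for 941 of 948 summits. The score deposited beside them was not used. Summits were covered by 258 to 10164 fragments (347 to 4258 at subunit genes), and 95% Poisson intervals cover counting error only. Unique mapping can lower signal in repeats such as tRNA genes. Both deposited files give the same 948 summits.

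The S288C assembly R64, which is sacCer3, supplied ORFs, tRNA genes and sequence (RefSeq). The motif matrix had 15 positions, from 403 best matches to the Abf1 consensus in peaks of 4 or more (7 of them at subunit genes), and a threshold of 85% of its score range. All 31 genes are named, with all of their summits. The members, lists and windows were chosen with earlier results of these data known. Functions were tested on simulated data. Scripts ran in Python 3.11.15 with scipy 1.17.1, pandas 2.3.3, matplotlib 3.10.9 and numpy 2.4.6.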

Additional observations from a re-analysis of the deposited data

How the results depend on the processing

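No paired analysis was possible because replicates were pooled before peaks were called, and for the same reason no replicate could be left out. The count of 16 subunit genes stayed between 11 and 16 with upstream limits of 500 or 250 bp, without summits in ORFs or tRNA genes, with the nearest start codon only and with 1 summit per interval. It was 7 at a fold enrichment of 4 and 3 at 10. Polymerase I fell from 5 genes to 2 at either shorter limit, 3 with the nearest start codon and 0 at both thresholds. The 1 polymerase II gene was lost (0) at 250 bp, with the nearest start codon, at 10 and with 1 summit per interval, where RPB7 drops behind a summit beyond its 3′ end. Polymerase III had 3 genes at 4 and 1 at 10, and the shared subunits 3 and 2. The median fold enrichment moved from 3.43 to 4.20 when summits of a gene were added up, and to 4.09 without those in tRNA genes. Motif counts at the summits were 11 to 13 in all 5 searches. PAC, RRPE and Reb1 counts were 6, 16 and 4 in a 250 bp window. Of 56 role counts under the alternatives, 37 stayed within 1.5 times. Of the other 49 combinations of a result and an alternative, 32 stayed within 1.5 times or the counting interval.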
